A study of Mus musculus with 8 samples.

Results

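Cadherins, ephrins, integrins and their close partners were examined in lenses of mouse embryos that express dnBrg1, a dominant-negative form of the chromatin remodeling ATPase Brg1. The 10 genes were Cdh1, Cdh2, Ctnna1, Ctnnd1, Epha2, Efna5, Itga6, Itga3, Itgb1 and Itgav. Every probe set that the array's annotation assigns to 1 of these genes alone was taken, which gave 23 of the 22626 probe sets compared. Whole lenses of embryos of mixed background at embryonic day 15.5 (E15.5) gave 4 dnBrg1 and 4 wild type samples, with each RNA on 1 Affymetrix mouse expression array. The study's methods do not state how many lenses or embryos each sample held, and a sample is called a lens below. The transgene carries a FLAG-tagged mutant Brg1 under the αA-crystallin promoter, and the study describes this promoter as active in postmitotic fiber cells. The dnBrg1 embryos were heterozygous and came from a single founder line, and the controls were wild type littermates. The sample descriptions state polysome-bound RNA for dnBrg1 lenses 1 and 2 and for all wild type lenses, and total RNA alone for dnBrg1 lenses 3 and 4, although the molecule field reads total RNA in all 8. Which is right is not known, so this described RNA fraction entered only as an alternative covariate. The question was which adhesion transcripts change in lenses whose differentiating fiber cells have impaired Brg1. Values are log2 intensities unless stated otherwise, each log2 fold change sets dnBrg1 over wild type with its standard error after ±, and adjusted p-values come from limma with Benjamini-Hochberg correction over all probe sets. A probe set was called at an adjusted p under 0.05.

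Lens cells are held together and to the lens capsule by these proteins. Cadherins bind cadherins of the neighboring cell and are tied to actin through catenins, Eph receptors respond to ephrins on the surface of an adjacent cell, and integrin αβ pairs bind the laminins and other matrix proteins of the capsule. Epithelial cells of the lens carry E-cadherin and N-cadherin, whereas elongating fiber cells keep N-cadherin, and mice without Epha2 or Efna5 develop lens defects.

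A property of the arrays moved with genotype. The 3' minus 5' difference of the array controls, a measure of how complete the amplified RNA is, averaged 0.67 ± 0.02 for Gapdh in dnBrg1 lenses and 1.59 ± 0.58 in wild type lenses (SD, n = 4 each). For β-actin it averaged 0.58 ± 0.06 in dnBrg1 and 2.50 ± 0.48 in wild type lenses, and for each control the 2-sided exact permutation test gave p = 0.029, the smallest that 4 against 4 allows. The mean of both controls lay between 0.59 and 0.65 on the dnBrg1 arrays, against 1.90, 2.66, 1.43 and 2.20 on wild type arrays 1 to 4. The fit was therefore also run with this difference as a covariate (the control covariate). The groups did not overlap in this difference, so that fit cannot tell RNA completeness apart from genotype, and calls kept or lost under it do not settle which applies. The 5 measured fiber cell markers, crystallins and Mip, were among the brightest signals in all lenses, with a summed linear intensity of 87018 to 93957 in dnBrg1 and 86133 to 92811 in wild type lenses. Cryaa, Cryba1 and Crybb1 lay near the top of the arrays' scale, so the sum identifies the tissue and cannot show whether fiber content differed. In bulk tissue, fewer cells of a type cannot be told apart from less RNA per cell.

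Of the 23 probe sets, 4 were called (17.4%), beside 40.8% of all probe sets on the array. In dnBrg1 lenses 2 were higher and 2 lower, beside 19.8% higher and 21% lower on the array. At an unadjusted p under 0.05 there were 8 of the 23, beside 11213 of the 22626 probe sets on the array. The 4 called were also those whose groups did not overlap, beside 40.1% of all probe sets. The called probe sets were 1 of Cdh1 and 1 of 2 of Cdh2, both higher, and 1 of 3 of Ctnna1 and 1 of 3 of Itga3, both lower. The median log2 fold change was -0.08 for the members and -0.08 for all probe sets, and the median of its size was 0.30 for the members and 0.34 for all. With the brightest probe set taken for each gene, 3 of 10 genes were called, beside 40.7% of the 12393 genes on the array. All 4 calls fell among the 13 member probe sets at or above the array median of 7.69, where 53.5% of all probe sets were called, and the 10 dimmer ones held none, beside 28.1%. With the control covariate, 2 member probe sets were called, 1 of Itga3 and that of Ctnnd1, beside 6.37% of the array.

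**Figure D1:**
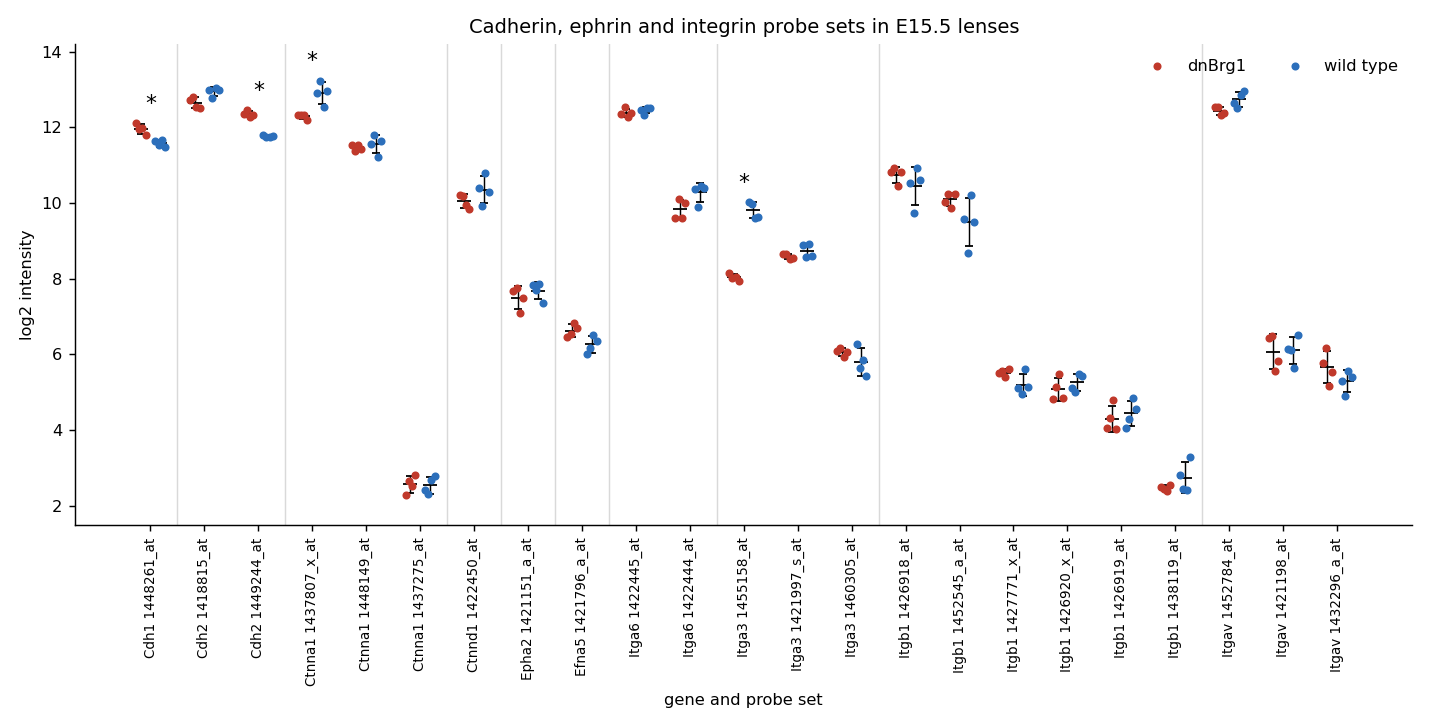
Log2 intensity (vertical axis) of each of the 23 probe sets in every dnBrg1 (red) and wild type (blue) lens, with 1 point per sample, the mean and SD of 4 samples as bars and an asterisk over called probe sets. The Itga3 probe set 1455158_at lies between 7.94 and 8.14 in dnBrg1 lenses, below all wild type values of 9.62 to 10.02, while its other probe sets overlap between the groups.

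Cdh1, which encodes E-cadherin, was higher in dnBrg1 lenses. Probe set 1448261_at, its only one, had 12.12, 11.95, 11.98 and 11.78 in dnBrg1 lenses 1 to 4, against 11.65, 11.53, 11.67 and 11.48 in wild type lenses 1 to 4. All dnBrg1 values lay above all wild type values, with the lowest dnBrg1 and the highest wild type value close to each other. The increase was 1.30-fold (log2 fold change 0.38 ± 0.11, adjusted p = 0.018, with a 95% confidence interval of 0.14 to 0.62). Without dnBrg1 lens 1, the lens with the highest Cdh1, the log2 fold change was 0.32 and no longer passed (limma adjusted p = 0.059; range over 22 alternatives 0.0075 to 0.66). The control covariate put it at 0.20 (limma adjusted p = 0.66).

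Lens 1 of the dnBrg1 group also stood apart in markers of surface and corneal epithelium, another E-cadherin-bearing tissue next to the lens. The summed linear intensity of the 8 markers was 11654 in dnBrg1 lens 1, between 2404.5 and 2714.5 in the other dnBrg1 lenses, and between 2306.1 and 2960 in wild type lenses. In 6 of the 8 markers, dnBrg1 lens 1 was the highest of all samples. Krt15, a keratin of basal epithelium, had 10.98 in that lens and 6.36 to 7.14 in the other dnBrg1 lenses. Of the list, Epcam alone was called (higher), and no marker was at 0. With dnBrg1 lenses 2 and 3 alone, an alternative added after seeing the data, the Cdh1 log2 fold change was 0.39 (limma adjusted p = 0.083). What part this tissue has in the Cdh1 value of lens 1 was not tested. Markers of the lens epithelium itself had summed intensities of 19794 to 21963 in dnBrg1 and 20680 to 22959 in wild type lenses, with 2 of 5 called higher and 1 lower. Their mean log2 intensity, in which bright markers weigh less, was 10.91 to 11.05 in dnBrg1 and 10.68 to 10.87 in wild type lenses. The groups overlapped in the sum and not in this mean.

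**Figure D2:**
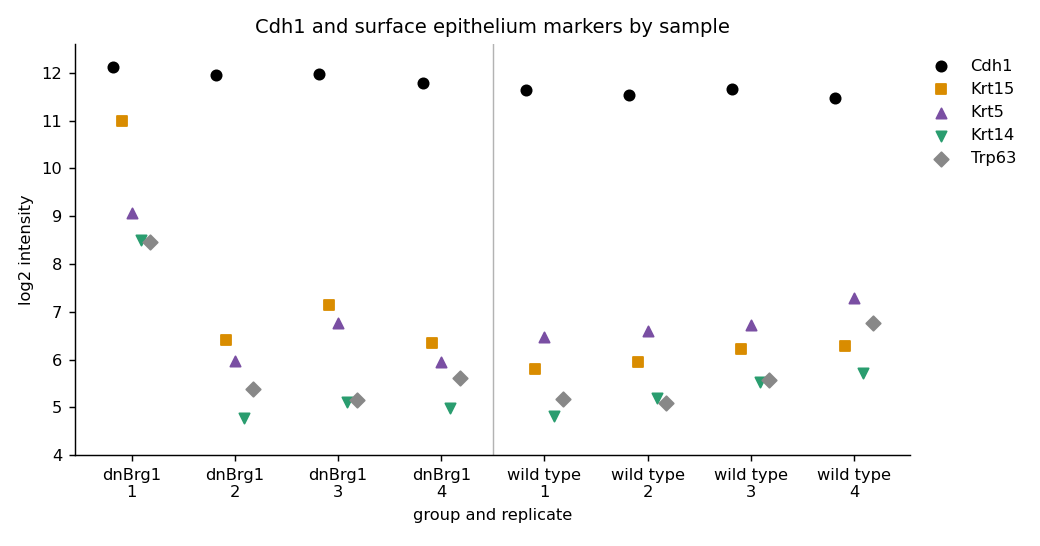
Log2 intensity (vertical axis) of Cdh1 and of 4 surface epithelium markers, each on its brightest probe set, in the 4 dnBrg1 and 4 wild type lenses (horizontal axis). Krt15, Krt5, Krt14 and Trp63 are high in dnBrg1 lens 1, which also has the highest Cdh1 value, 12.12.

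Cdh2, which encodes N-cadherin, the cadherin of fiber cells, gave different answers on its 2 probe sets. With 1449244_at, Cdh2 had 12.34, 12.45, 12.26 and 12.33 in dnBrg1 lenses 1 to 4, against 11.78, 11.76, 11.73 and 11.78 in wild type lenses 1 to 4. The groups were well separated, and the wild type values were nearly equal (SD 0.02). The increase was 1.5-fold (log2 fold change 0.58 ± 0.09, adjusted p = 0.00077), and it passed under each of the 22 alternatives except the control covariate, where its size was 0.62 (limma adjusted p = 0.099; range 0.00011 to 0.099). The brighter probe set, 1418815_at, had 12.72, 12.81, 12.53 and 12.52 in dnBrg1 lenses, against 12.98, 12.78, 13.03 and 13.0 in wild type lenses. Here the estimate was in the opposite direction and narrowly missed the threshold (-0.30 ± 0.11, adjusted p = 0.053), and it passed under 10 of 22 alternatives, among them without wild type lens 2 (-0.36, limma adjusted p = 0.033) and without dnBrg1 lens 2 (-0.36, limma adjusted p = 0.044). The mean of both probe sets was 0.14 (limma adjusted p = 0.25), so that the direction for Cdh2 depended on the probe set.

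The catenins link these cadherins to the cytoskeleton. Ctnna1 encodes α-catenin, the actin-binding link of the complex, and its brightest probe set, 1437807_x_at, was lower in dnBrg1 lenses. The values were 12.32, 12.33, 12.33 and 12.20 in dnBrg1 lenses 1 to 4, against 12.91, 13.23, 12.52 and 12.95 in wild type lenses 1 to 4. The dnBrg1 samples were tightly grouped below a widely spread wild type group (SD 0.07 in dnBrg1 and 0.29 in wild type lenses). The decrease was 1.53-fold (log2 fold change -0.61 ± 0.15, adjusted p = 0.0084), and with the control covariate the estimate turned to 0.17 (limma adjusted p = 0.64; range 0.00098 to 0.64). The _x_ in a probe set's name marks probes that may also match other transcripts. A further bright probe set, 1448149_at, was at -0.08 ± 0.13 (adjusted p = 0.66, with an interval of -0.38 to 0.22), and the dim 1437275_at was at 0.02 ± 0.15 (adjusted p = 0.93).

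Ctnnd1 encodes p120-catenin, which keeps cadherins at the cell surface. It had 10.22, 10.18, 9.94 and 9.85 in dnBrg1 lenses, against 10.40, 9.92, 10.80 and 10.30 in wild type lenses, and the groups overlapped. The log2 fold change was -0.31 ± 0.18 and did not pass (adjusted p = 0.21). Under the control covariate it was -1.25 and passed (limma adjusted p = 0.040; range 0.040 to 0.67).

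Neither the Eph receptor nor its ephrin passed the test. Epha2, a receptor tyrosine kinase of lens cells, had 7.66, 7.76, 7.08 and 7.5 in dnBrg1 lenses, against 7.84, 7.69, 7.86 and 7.36 in wild type lenses. The groups overlapped, and the log2 fold change was -0.19 ± 0.17 (adjusted p = 0.41, with an interval of -0.57 to 0.20). Efna5, which encodes a lipid-anchored ephrin ligand, had 6.46, 6.53, 6.83 and 6.69 in dnBrg1 lenses, against 6.0, 6.17, 6.53 and 6.36 in wild type lenses. The Efna5 groups overlapped only at their edges (0.36 ± 0.14, adjusted p = 0.064). Without wild type lens 3 the estimate was 0.45 and passed (limma adjusted p = 0.024; range 0.024 to 0.95), and with the control covariate it was 0.04.

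Itga3, the integrin α3 subunit that pairs with β1 as a laminin receptor, had the member probe set with the largest difference. With 1455158_at, Itga3 had 8.14, 8.03, 8.04 and 7.94 in dnBrg1 lenses 1 to 4, against 10.02, 9.96, 9.62 and 9.64 in wild type lenses 1 to 4. The gap between the groups was far wider than the spread within either (SD 0.08 in dnBrg1 and 0.21 in wild type lenses). The decrease was 3.41-fold (log2 fold change -1.77 ± 0.12, adjusted p = 1.6e-05, with an interval of -2.05 to -1.50). It passed under all 22 alternatives run, with log2 fold changes between -1.84 and -1.49 and limma adjusted p-values between 4.6e-06 and 0.025.

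The other probe sets of Itga3 did not follow it. With 1421997_s_at, Itga3 had 8.66, 8.65, 8.53 and 8.54 in dnBrg1 lenses, against 8.88, 8.57, 8.92 and 8.61 in wild type lenses, a log2 fold change of -0.15 ± 0.11 (adjusted p = 0.32). The interval of that estimate, -0.40 to 0.11, does not reach the value of 1455158_at. The dimmest, 1460305_at, had 6.10, 6.18, 5.94 and 6.06 in dnBrg1 lenses, against 6.28, 5.64, 5.85 and 5.42 in wild type lenses (0.27 ± 0.17, adjusted p = 0.23). Without wild type lens 1 this estimate was 0.43 and passed as higher (limma adjusted p = 0.033; range 0.033 to 0.84). The mean of the 3 probe sets was -0.55 ± 0.12 (limma adjusted p = 0.0049 over genes). This mean includes 1455158_at, so it is no separate evidence of a decrease, and the others were at -0.15 and 0.27. The exons or transcript ends that each probe set reads were not known here.

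The RefSeq table held 2 start sites for Itga3 on the minus strand of chromosome 11 (GRCm38.p6), and both promoters are shown because this gene had the probe set with the largest difference. Each window runs from 250 bases before to 50 bases after the start, 5′ to 3′, with copies of the GC box GGGCGG in capitals. The first lies at chr11:95076665-95076964 and the second at chr11:95069149-95069448.
Itga3 promoter 1: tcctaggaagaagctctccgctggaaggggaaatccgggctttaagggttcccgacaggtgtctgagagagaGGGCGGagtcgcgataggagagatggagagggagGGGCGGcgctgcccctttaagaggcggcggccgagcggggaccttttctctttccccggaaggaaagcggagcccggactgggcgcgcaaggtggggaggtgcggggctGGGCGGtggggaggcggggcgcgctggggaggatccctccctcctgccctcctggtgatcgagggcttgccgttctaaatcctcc
Itga3 promoter 2: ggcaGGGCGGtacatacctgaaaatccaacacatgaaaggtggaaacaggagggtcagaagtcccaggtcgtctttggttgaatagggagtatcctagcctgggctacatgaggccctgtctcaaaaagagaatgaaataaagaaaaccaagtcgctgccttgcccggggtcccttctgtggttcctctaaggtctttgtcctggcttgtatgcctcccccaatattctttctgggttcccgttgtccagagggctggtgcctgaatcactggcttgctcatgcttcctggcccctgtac
The first window held 3 GC boxes and 1 E-box (CACCTG, searched on both strands as CACCTG and CAGGTG), and the second held 1 GC box and no E-box. Among 32851 mouse promoters of this length, 35.7% held the GC box (GGGCGG or CCGCCC) and 20.2% held the E-box. A match in letters is a description of the window, and which start each Itga3 probe set reports on is not known. Of the 10 genes, 6 were matched to a promoter, in a search that left out 1 chromosome.

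Itga6, the α6 subunit of further laminin receptors, was measured by 2 probe sets. The brighter one, 1422445_at, had 12.34, 12.53, 12.26 and 12.36 in dnBrg1 lenses, against 12.46, 12.34, 12.51 and 12.50 in wild type lenses, and the groups overlapped. Its log2 fold change was -0.08 ± 0.10 (adjusted p = 0.57), with an interval of -0.30 to 0.15. The second, 1422444_at, had 9.61, 10.10, 9.61 and 9.99 in dnBrg1 lenses, against 10.38, 9.89, 10.44 and 10.41 in wild type lenses. Wild type lens 2 lay among the dnBrg1 values. The estimate was -0.45 ± 0.17 (adjusted p = 0.057), and without wild type lens 2 it was -0.58 and passed (limma adjusted p = 0.015; range 0.015 to 0.21), as it did without dnBrg1 lens 2 (-0.54, limma adjusted p = 0.041).

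**Figure D3:**
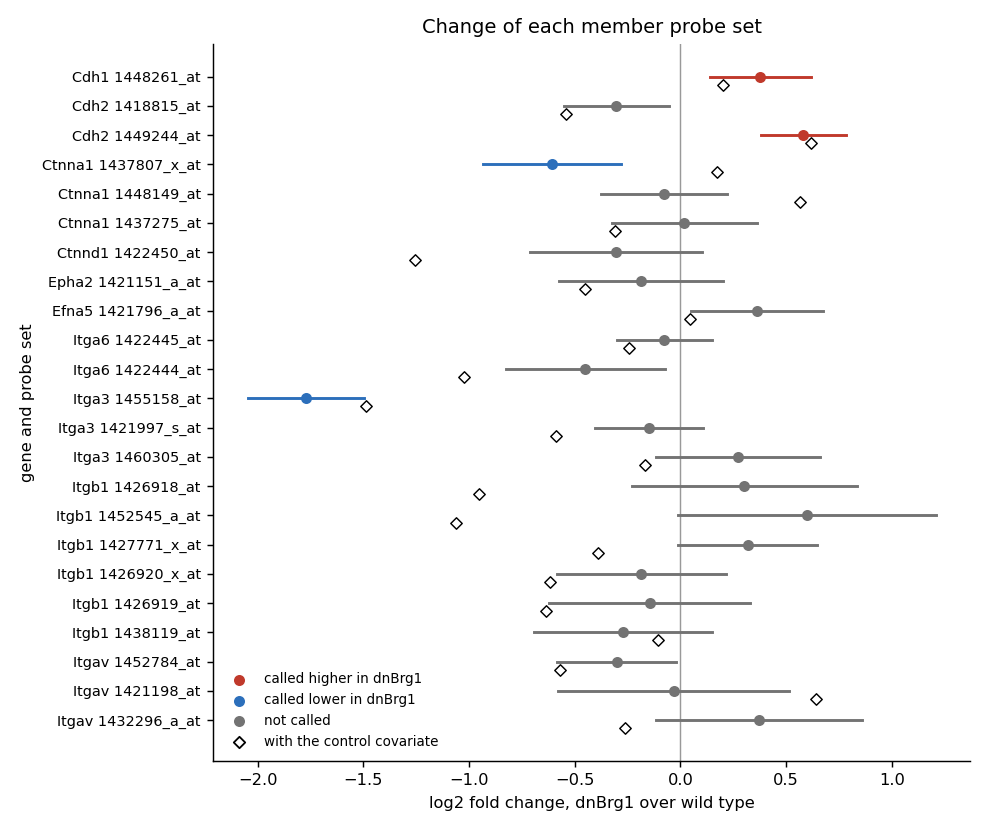
Log2 fold change of each member probe set, dnBrg1 over wild type (horizontal axis), with its 95% confidence interval, by gene and probe set (vertical axis), in red where called higher, blue where called lower and grey where not called, with open diamonds for the control covariate fit. The Itga3 probe set 1455158_at stands at -1.77, while the other 22 lie between -0.61 and 0.60.

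Itgb1 encodes the β1 subunit that is shared by the α3 and α6 receptors and by many others. None of its 6 probe sets was called, with log2 fold changes of -0.27 to 0.60. With 1452545_a_at, Itgb1 had 10.03, 10.23, 9.88 and 10.24 in dnBrg1 lenses 1 to 4, against 9.58, 8.69, 10.21 and 9.49 in wild type lenses 1 to 4. The estimate was 0.60 ± 0.27 (adjusted p = 0.11), and its interval of -0.01 to 1.21 covers 0. The brightest, 1426918_at, had 10.83, 10.92, 10.44 and 10.81 in dnBrg1 lenses, against 10.53, 9.72, 10.92 and 10.61 in wild type lenses (0.30 ± 0.24, adjusted p = 0.33). On both probe sets wild type lens 2 was the lowest sample. Without wild type lens 3, which was the highest wild type sample on each, the estimate of 1452545_a_at was 0.84 and passed (limma adjusted p = 0.014; range 0.014 to 0.32), and that of the dim 1427771_x_at passed too (0.45, limma adjusted p = 0.0072; range 0.0072 to 0.36). Under the control covariate the estimates were -1.06 and -0.95, opposite in direction to those without it (limma adjusted p = 0.072 and 0.16).

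Itgav, the αv subunit of receptors for vitronectin and fibronectin, was also not called on any of its 3 probe sets. The brightest, 1452784_at, had 12.53, 12.53, 12.31 and 12.37 in dnBrg1 lenses, against 12.64, 12.50, 12.85 and 12.96 in wild type lenses. Wild type lens 2 again lay within the dnBrg1 range, and the estimate was -0.30 ± 0.12 (adjusted p = 0.080). Without that lens it was -0.38 and passed (limma adjusted p = 0.034; range 0.034 to 0.40). The dimmer Itgav probe sets were at -0.03 ± 0.24 and 0.37 ± 0.22 (adjusted p = 0.93 and 0.20).

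The SD was larger among wild type than among dnBrg1 lenses in 13 of the 23 member probe sets, beside 15855 of the 22626 on the array. The median SD of the member probe sets was 0.145 in dnBrg1 and 0.245 in wild type lenses, and over all probe sets it was 0.151 in dnBrg1 and 0.229 in wild type lenses. Among wild type lenses, lens 3, whose controls differed least between 3' and 5', was the highest in 14 of the 23 member probe sets (60.9%, against 33.1% of all probe sets). Lens 2, with the largest difference, was the lowest in 12 (52.2%, against 33.1%). For both bright Itgb1 probe sets and Ctnnd1, lens 3 was the highest and lens 2 the lowest wild type sample, and for Ctnna1 1437807_x_at the order was the opposite. The wild type values of Cdh2 1449244_at spanned 11.73 to 11.78 and showed no such order. The control difference did not overlap between the groups, so the covariate adjustment rests mainly on the spread among wild type lenses. Standard errors were larger with it, 0.19 against 0.09 for Cdh2 1449244_at and 0.27 against 0.12 for Itga3 1455158_at. RNA completeness and genotype cannot be told apart here, and the part of RNA completeness in these results was not tested.

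**Figure D4:**
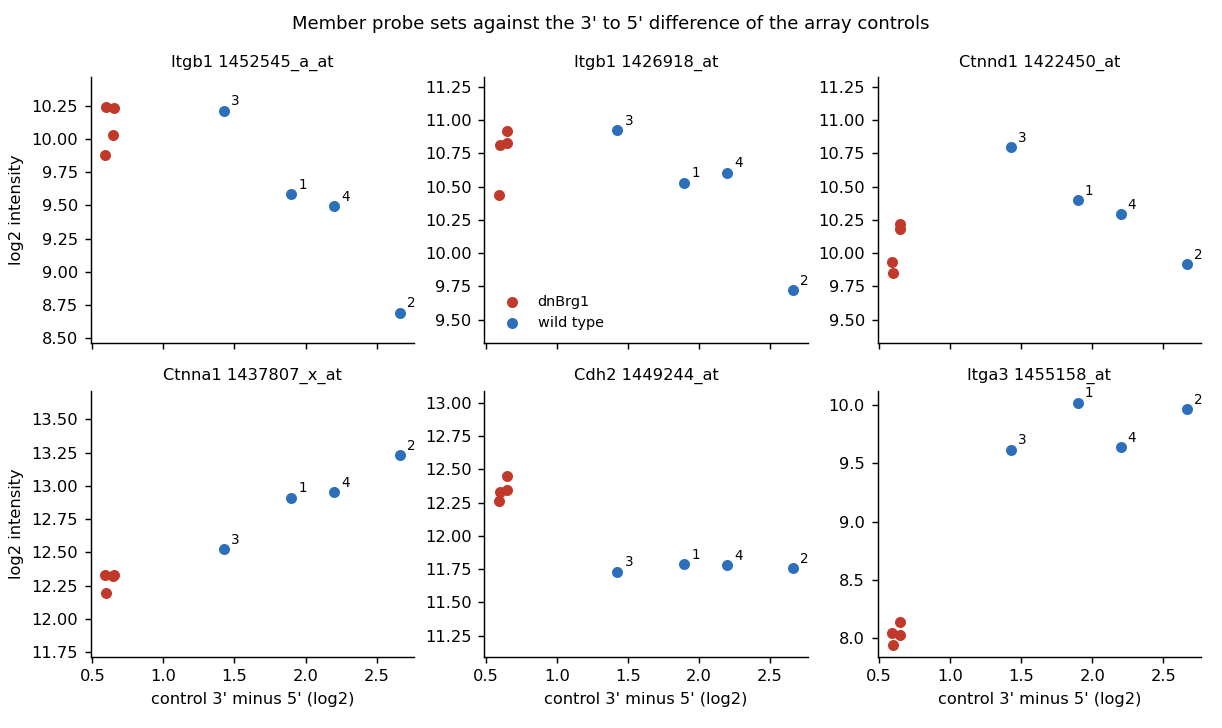
Log2 intensity of 6 member probe sets (vertical axes) against the 3' minus 5' difference averaged over both array controls (horizontal axis, log2), for dnBrg1 (red) and wild type (blue, numbered by replicate) lenses. Among wild type lenses the Itgb1 values are lowest where the control difference is largest (2.66, lens 2) and highest where it is smallest (1.43, lens 3). The groups do not overlap for Ctnna1 1437807_x_at, Cdh2 1449244_at and Itga3 1455158_at.

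The wider adhesion machinery was described on the brightest probe set of each gene, with 40.7% of all genes called. Among 19 cadherin partners and adherens junction genes, 5 were called higher and 2 lower (36.8%), with a median log2 fold change of 0.05 beside -0.11 for all genes. The p120-catenin relative Arvcf rose (1.48 ± 0.17, adjusted p = 0.00017) on 2 of its 3 probe sets. Cdh4, which encodes R-cadherin, rose by 1.17 ± 0.11 (adjusted p = 7.3e-05) on its brightest probe set, and its other was at -0.30 and not called. The nectins, immunoglobulin-type adhesion proteins of the same junctions, were split. Nectin2 fell (-0.99, adjusted p = 0.0030) and Nectin1 fell (-0.41, adjusted p = 0.017), while Nectin3 rose on its brightest probe set (0.50, adjusted p = 0.020) and on 2 others and fell on another (-1.15). The second Nectin2 probe set was at 0.32 and not called. Without dnBrg1 lens 4, Nectin1 (-0.34, adjusted p = 0.053) and Nectin3 (0.46, adjusted p = 0.058) lost their calls, and Nectin3 also without dnBrg1 lens 2 (0.46, adjusted p = 0.055). Ctnnb1, β-catenin, was at -0.02 (adjusted p = 0.90) on its brightest probe set and was called higher on both others (1.21 and 1.5, adjusted p = 0.0085 and 0.0044). No gene of the list was called with the control covariate, where Arvcf was at 0.59 (adjusted p = 0.21), Cdh4 at 0.92 (adjusted p = 0.071), Nectin2 at 0.057 and Nectin3 at -0.031.

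Of 17 other Eph receptors and ephrins, 3 were called higher and 7 lower (58.8%, beside 40.7% of all genes), with a median of -0.29. The ligands Efna4 (1.42, adjusted p = 0.00018) and Efna1 (1.32, adjusted p = 0.00040) rose, as did the receptor Epha4 (1.25, adjusted p = 0.00017). The other, dim Epha4 probe set was at -0.08 and not called. The receptors Epha5 (-1.13, adjusted p = 0.00011), Ephb6 (-0.94, adjusted p = 0.0015) and Epha3 (-0.76, adjusted p = 0.021) fell. Both Efna1 probe sets were called higher and both Epha5 probe sets lower. The Epha3 groups overlapped, its other probe sets were at -0.03 and -0.15 and not called, and the Epha3 call was lost in 10 of 21 alternatives, among them without wild type lens 4 (-0.72, adjusted p = 0.055), dnBrg1 lens 2 (-0.68, adjusted p = 0.060) or dnBrg1 lens 4 (-0.66, adjusted p = 0.063). Efnb1 (-1.04, adjusted p = 0.025) and Ephb3 (-0.88, adjusted p = 0.048) were the genes of this list called with the control covariate.

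Of 17 other integrin subunits, 1 was called higher and 6 lower (41.2%, beside 40.7% of all genes). Itga2, a collagen-binding α subunit, rose by 2.11 ± 0.32 (adjusted p = 0.00068), a fold change on low wild type values. Itga4 (-0.88, adjusted p = 0.0038), the fibronectin receptor subunit Itga5 (-0.79, adjusted p = 0.0019) and the platelet subunit Itga2b (-0.50, adjusted p = 0.038) fell. The other Itga4 probe sets were at -0.04 and -0.08 and the other Itga5 probe set at 0.27, and these were not called. Itga2b lost its call in 10 of 21 alternatives, among them without wild type lens 2 or 4 or without dnBrg1 lens 1, 2 or 3 (-0.52 to -0.37, adjusted p = 0.061 to 0.10). None of these subunits was called with the control covariate, where Itga2 was at 0.96 (adjusted p = 0.44), Itga4 at -0.45 (adjusted p = 0.57), Itga5 at -0.60 (adjusted p = 0.32) and Itga2b at -0.22 (adjusted p = 0.79). Itga4 and Itga2b are also carried by blood cells, and the macrophage markers had summed intensities of 1414.3 to 2790.5 in dnBrg1 lenses, against 3625.5 to 4890.2 in wild type lenses, with 2 of 6 called higher and 2 lower. The separation of these sums came from Csf1r (-2.13), and the other 5 markers summed to 716.53 to 1570.9 in dnBrg1 lenses and 589.34 to 748.8 in wild type lenses. The part of blood cells in the integrin values was not tested.

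Integrin adaptors and focal adhesion genes were called in 12 of 18 (66.7%), 6 in each direction. Over the array, 40.7% of all genes and 53.5% of the probe sets at or above the array median were called. Fermt2, which encodes the integrin activator kindlin-2, rose on its brightest probe set (0.90, adjusted p = 6.8e-05). Its other probe set was at 0.06 (adjusted p = 0.84) and not called. The integrin-linked kinase Ilk (0.86, adjusted p = 0.00050) and paxillin, Pxn (0.62, adjusted p = 0.0012), also rose. Cd151, a tetraspanin that binds the laminin receptors α3β1 and α6β1, fell on its brightest probe set (-1.71 ± 0.17, adjusted p = 7.4e-05) and on the next (-1.88). The other 4 Cd151 probe sets were not called. Bcar1, a docking protein of focal adhesions, fell on its brightest probe set (-1.28, adjusted p = 0.00029) and was at 0.20 and not called on the other. Fermt3, the kindlin of blood cells, fell on its brightest probe set (-1.13, adjusted p = 0.00026) and rose on another (1.0). With the control covariate, 3 genes of the list were called. Fermt2 kept its call (0.80, adjusted p = 0.044), as did the kinase Src (-1.37, adjusted p = 0.021, against -1.0 without it), and the tensin Tns1 was called higher (1.51, adjusted p = 0.041), opposite to its estimate without it (-1.01, adjusted p = 0.066). Cd151 (-0.74, adjusted p = 0.066), Bcar1 (-0.41, adjusted p = 0.34), Fermt3 (-0.76, adjusted p = 0.19), Ilk (1.0, adjusted p = 0.079) and Pxn (0.49, adjusted p = 0.24) were then no longer called.

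Among 13 integrin ligands, 2 were called higher and 3 lower (38.5%, beside 40.7% of all genes). Tenascin, Tnc (0.86, adjusted p = 0.015), and the laminin chain Lama5 (0.49, adjusted p = 0.0080) rose. The Tnc values were low, with means of 4.64 in dnBrg1 and 3.78 in wild type lenses, and its call was lost in 6 of 21 alternatives. The laminin chain Lama2 (-1.17, adjusted p = 0.010), nephronectin, Npnt (-0.79, adjusted p = 0.0036), and vitronectin, Vtn (-0.72, adjusted p = 0.018), fell. Vtn lost its call in 5 of 21 alternatives, and its other probe set was at 0.19 and not called. Npnt fell on its brightest probe set and rose on 3 dimmer ones (0.69, 1.07 and 1.13). No ligand was called with the control covariate, where Tnc was at 1.53, Lama5 at 0.74, Lama2 at 0.20, Npnt at -0.12 and Vtn at -0.092 (adjusted p = 0.13 to 0.93).

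**Figure D5:**
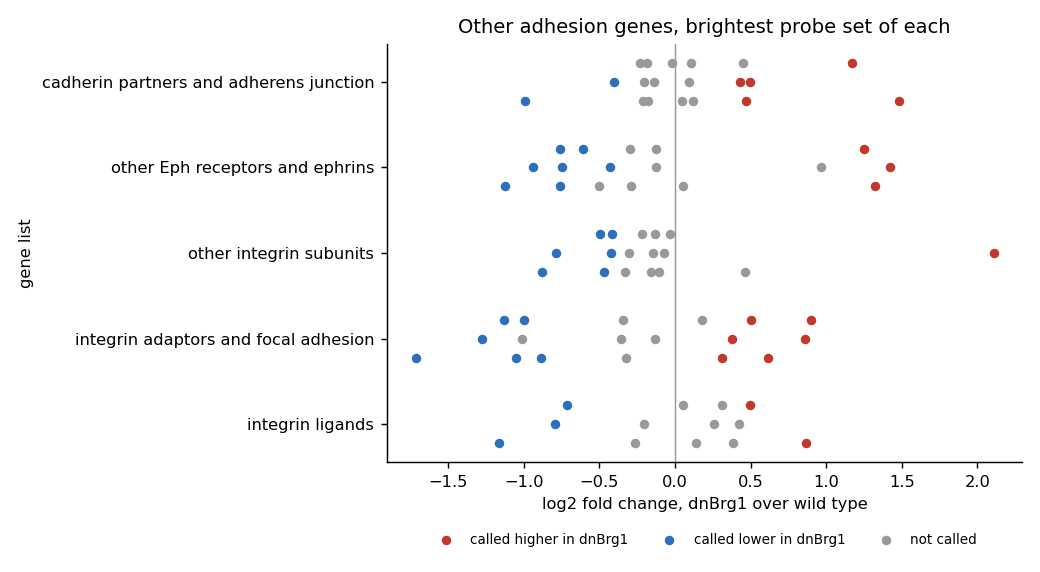
Log2 fold change, dnBrg1 over wild type (horizontal axis), of the brightest probe set of each gene in 5 lists of adhesion genes (vertical axis), with called genes in red (higher) and blue (lower) and others in grey. Itga2 stands at 2.11 and Cd151 at -1.71, and each list holds genes called in both directions.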

How the data were processed

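RNA of 4 dnBrg1 and 4 wild type samples of whole E15.5 lenses was amplified and biotin-labeled (NuGEN). Per the labels and the study's methods, the authors normalized the arrays with RMA (version not given in the sources used here). The deposited intensities are linear, and log2 was taken before any test. RMA makes the arrays' distributions alike, so a shift shared by most transcripts would be removed. Array medians lay between 196.94 and 209.09, and precision is limited by the number of arrays. Probe sets were named by the platform annotation: of 22690, 64 were controls, 20380 named 1 gene, 691 several and 1555 none.

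All 22626 other probe sets were fitted with limma 3.58.1 (lmFit, eBayes) in R 4.3.3, without covariate or filter, and a probe set was called at an adjusted p under 0.05. The study's methods call the replicates biological. This fit was first tested on simulated data with known changes. The members and lists were chosen with earlier results of these data known. Every member probe set was named, and from each pathway list up to 3 called genes per direction with the largest change on the brightest probe set. Further probe sets of those genes, Ctnnb1, Efnb1, Ephb3, Src, Tns1, the fiber cell markers, Csf1r, Krt15, Krt5, Krt14, Trp63 and Epcam were named after their values were seen. The marker lists covered lens fiber and epithelium, surface epithelium, mesenchyme, vessels, macrophages, retina and pigment cells. Alternatives covered scaling, an added constant of 16, each sample left out, a filter on dim probe sets, array weights, the variance model, the described RNA fraction, the replicate block, the control covariate, a threshold of 0.01 and the methods' t-test.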

Additional observations from a re-analysis of the deposited data

Results flagged for a closer look

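In the 46 groups of 4 values that the 23 member probe sets form, 2 held a sample whose gap to its neighbor was large beside the whole range of the group (above Dixon's 95% critical value), where chance gives about 1 in 20. For Ctnna1 1437807_x_at, dnBrg1 lens 4 had 12.2, apart from the others at 12.32 to 12.33. For Itga6 1422444_at, wild type lens 2 had 9.89, apart from the others at 10.38 to 10.44.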

How the results depend on the processing

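Over the array, 4484 probe sets were called higher and 4745 lower, and among the members 2 and 2. The described RNA fraction as covariate gave 3114 lower over the array and 1 member lower, dnBrg1 lenses 1 and 2 alone gave 2600 lower and 1 member lower, and a threshold of 0.01 gave 2820 lower and 1 member higher. With the control covariate, 808 were called higher and 634 lower, with 0 members higher. An alternative added after seeing the data kept dnBrg1 lenses 2 and 3 alone, the ones with low mesenchyme and surface markers, and gave 2902 higher and 2469 lower, with 1 member in each direction. Members called lower numbered 5 with median centring (5397 over the array), quantile normalization (4682), the intensity trend (4868) and the methods' unadjusted t-test (5709). Bright probe sets alone gave 4 members lower, beside 3203 lower among all bright ones. Array weights gave 5 members higher and 4 lower, beside 4852 higher and 5128 lower over the array. Leaving out each sample gave 1 to 5 members higher, 2 to 5 lower, and 3924 to 4978 higher and 3776 to 5194 lower over the array. The methods' t-test called 4908 higher and 5709 lower at an unadjusted p under 0.05, and 4074 and 4171 after Benjamini-Hochberg correction.

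Replicate numbers did not pair the samples (correlations of -0.19, -0.01, -0.05 and 0.16), and 1 of the 8 samples, wild type lens 4, correlated best with its own number. With the replicate block the counts were 4064 higher and 3899 lower over the array and 3 and 2 among members, Efna5 being added (adjusted p = 0.042).

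Cdh1 lost its call with dnBrg1 lenses 2 and 3 alone (0.39, adjusted p = 0.083), and Ctnna1 1437807_x_at lost it with them (-0.57, adjusted p = 0.082), with the RNA fraction (-0.58, adjusted p = 0.051) and with dnBrg1 lenses 1 and 2 alone (adjusted p = 0.077). With the control covariate, estimates turned to 0.17 for Ctnna1 1437807_x_at, 0.57 for 1448149_at and -0.31 for 1437275_at, -0.17 for Itga3 1460305_at, -0.95, -1.06 and -0.39 for 3 Itgb1 probe sets, 0.64 and -0.26 for Itgav 1421198_at and 1432296_a_at, -0.031 for Nectin3, 0.057 for Nectin2 and 0.20 for Lama2. With the RNA fraction and with dnBrg1 lenses 1 and 2 alone, Itgav 1421198_at was at 0.35, Epha2 at 0.022 and Ctnna1 1437275_at at -0.081. With dnBrg1 lenses 2 and 3 alone, Itgb1 1426920_x_at was at 0.060 and 1426919_at at 0.11. Centring put Ctnna1 1437275_at at -0.018, and single samples left out put it between -0.063 and 0.12, Ctnna1 1448149_at between -0.19 and 0.00041 and Itgav 1421198_at between -0.18 and 0.14. The mean of all probe sets was 0.14 for Cdh2 and 0.013 for Itgav. The causes were not tested.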

Other observations

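Periocular mesenchyme markers had summed linear intensities of 10200, 1259, 2030.4 and 9506.6 in dnBrg1 lenses 1 to 4, against 2357.3 to 5174.3 in wild type lenses, and none of the 7 measured was called. Vascular endothelium markers had sums of 3635.1 to 4334 in dnBrg1 and 3819.9 to 4173.7 in wild type lenses, with 3 of 7 called higher and 2 lower. Retina and neuron markers had sums of 6198.3 to 8452.6 in dnBrg1 and 7848.6 to 10227 in wild type lenses, with 1 of 5 called higher and 3 lower. Pigment cell markers had sums of 4857.1 to 7119 in dnBrg1 and 6056.9 to 9327.9 in wild type lenses, with 2 of 5 called lower.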
